A study of Mus musculus with 12 samples.

Results

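Krt80, Cyp27a1, Arfgef3, Inppl1, Shtn1, Slc6a15, Robo3, Naip6 and Tcaf1 had on average more RNA in p300-deleted blood progenitors. Each was followed through every library. They are 9 of the 46517 genes in the count table, and all 9 were among the 17842 genes that passed the filter on low counts. They were chosen for higher CPM (read counts scaled to the same library total) in libraries with p300 in the label (6) than in those without (6). Not all were picked from both p300 comparisons, as listed below. Each p300 difference of these genes is therefore given as a description with no test. RNA came from LSK cells sorted from bone marrow, which lack lineage markers, carry Sca-1 and c-Kit, and include hematopoietic stem cells and multipotent progenitors. There were 12 libraries in 4 groups of 3: WT, p300KO, Tet2KO and p300KO_Tet2KO, from C57BL/6 mice aged 8 to 10 weeks, 2 weeks after poly(I:C). For Naip6 and Robo3 every p300KO library was above every WT library, but their p300KO_Tet2KO and Tet2KO libraries overlapped. The series text describes all groups as Mx1-Cre+ and gives the alleles as Ep300f/f, Tet2-/- or both. The methods of the study instead give Ep300 fl/fl without Mx1-Cre for WT and Ep300 fl/fl with Tet2-/- but no Mx1-Cre for Tet2KO, and Mx1-Cre with Ep300 fl/fl for both p300-deleted groups. Under that account a p300 comparison is also one of Cre carriers with mice lacking Cre, and the effects of Cre and of Ep300 deletion cannot be told apart. Mx1-Cre is driven by an interferon-inducible promoter that poly(I:C) switches on, also in cells other than blood cells. The methods call the 3 libraries of each group independent biological replicates, and neither they nor the labels say whether animals were pooled within a library.

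Ep300 encodes p300, a histone acetyltransferase that is recruited to enhancers and promoters and is known above all as a coactivator of transcription. Tet2 encodes an enzyme that oxidises 5-methylcytosine in DNA. The genes described here belong to pathways that are mostly studied outside the blood. Krt80 encodes an epithelial keratin of the intermediate filament cytoskeleton, and Cyp27a1 the mitochondrial sterol hydroxylase of bile acid and oxysterol synthesis. Arfgef3 encodes a relative of the BIG exchange factors for ARF GTPases, and Inppl1 encodes SHIP2, a phosphatase that acts on the lipid product of PI 3-kinase. Shtn1 encodes shootin, which couples actin flow to adhesion in growing axons, Slc6a15 a neutral amino acid transporter known from neurons, and Robo3 a roundabout receptor of commissural axons. Naip6 encodes a mouse NAIP protein, which senses bacterial flagellin in the cytosol and engages the NLRC4 inflammasome. Tcaf1 encodes a partner of TRPM channels.

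Total counts ran from 18773903 to 79573664 per library. Ep300 RNA was at 285 to 350 CPM in the libraries without p300 in the label and at 166 to 233 CPM in those with it, and it fell by 0.79 on the log2 scale on average (SE 0.08, edgeR adjusted p = 4.19e-05). Tet2 RNA was at 38.6 to 56.6 CPM in Tet2KO, but the libraries labelled p300KO_Tet2KO held 101 to 145 CPM, against 120 to 139 CPM in WT. Tet2 RNA in these 3 libraries went against the label. The name p300KO_Tet2KO stands below for the libraries labelled so, and each Tet2 direction drawn from them rests on the label. All 8 markers of the LSK gate were at 1 CPM or more on average. RNA of Xist and of Y-linked genes showed that the sexes were unequally spread: the 3 WT libraries held Y-linked RNA, while Xist was at 5776 CPM or more in replicate 3 of p300KO, of Tet2KO and of p300KO_Tet2KO and in replicate 1 of the last, and Tet2KO replicate 1 held both.

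The promoters of the genes are shown because the 9 genes were chosen for being high together. The RefSeq table of promoters (GRCm38.p6) held 8 promoters for 6 of them, Cyp27a1, Arfgef3, Inppl1, Robo3, Naip6 and Tcaf1, and none was shown for Krt80, Shtn1 and Slc6a15. The 250 bases before the start of transcription follow for 5 promoters, 5′ to 3′ on the strand of the gene. Capitals mark GGGCGG (the GC box bound by SP factors), CCAAT (the site of NF-Y) and TATAAA, on either strand, so that CCGCCC and ATTGG are the reverse complements of GGGCGG and CCAAT.
Cyp27a1, chr1:74713285-74713534, plus strand: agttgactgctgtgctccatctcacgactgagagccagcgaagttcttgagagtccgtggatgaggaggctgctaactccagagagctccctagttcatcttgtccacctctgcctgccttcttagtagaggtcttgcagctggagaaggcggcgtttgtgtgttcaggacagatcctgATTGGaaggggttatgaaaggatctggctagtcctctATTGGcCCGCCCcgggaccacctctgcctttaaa
Inppl1, chr7:101838227-101838476, minus strand: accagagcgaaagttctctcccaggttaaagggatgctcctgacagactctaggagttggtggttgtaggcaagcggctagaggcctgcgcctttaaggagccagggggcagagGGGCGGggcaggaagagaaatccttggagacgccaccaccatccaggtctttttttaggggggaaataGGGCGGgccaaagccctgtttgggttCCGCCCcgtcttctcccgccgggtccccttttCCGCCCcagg
Robo3, chr9:37433176-37433425, minus strand: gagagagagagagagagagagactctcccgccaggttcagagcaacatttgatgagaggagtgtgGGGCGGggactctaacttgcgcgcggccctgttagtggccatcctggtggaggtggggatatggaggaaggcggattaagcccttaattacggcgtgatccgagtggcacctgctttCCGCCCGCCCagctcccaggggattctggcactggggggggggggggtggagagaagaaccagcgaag
Tcaf1, chr6:42710116-42710365, minus strand: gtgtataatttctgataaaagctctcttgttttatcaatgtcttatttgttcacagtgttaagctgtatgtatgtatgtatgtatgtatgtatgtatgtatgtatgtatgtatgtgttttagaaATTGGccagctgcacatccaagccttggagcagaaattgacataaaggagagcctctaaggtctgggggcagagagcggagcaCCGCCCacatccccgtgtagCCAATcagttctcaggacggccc
Naip6, chr13:100316617-100316866, minus strand: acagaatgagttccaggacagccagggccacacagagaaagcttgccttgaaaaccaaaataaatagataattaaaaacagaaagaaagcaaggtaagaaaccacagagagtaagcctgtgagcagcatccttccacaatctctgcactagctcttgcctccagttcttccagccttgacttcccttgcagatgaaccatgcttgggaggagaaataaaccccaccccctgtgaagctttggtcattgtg
The Inppl1 promoter held 4 GC boxes, that of Robo3 held 3 (a pair of them overlapping), those of Cyp27a1 and Tcaf1 each held 1 GC box and 2 CCAAT boxes, and that of Naip6 held neither. Over windows that also include 50 bases after the start, GGGCGG was in 7 of the 8 promoters (5 of 6 genes), against 35.7% of all 32851 mouse promoters in the table. CCAAT was in 5 of 8, against 37.4% of all promoters, and TATAAA in 0 of 8, against 13.6%. The same windows were searched on both strands for further motifs. The E-box CANNTG was in 6 of 8 promoters (72.3% of all promoters), and the MYB core AACTG was in 4 of 8 (44.8%). The PU.1 core GAGGAA was found in the promoters of Robo3 and Tcaf1 (28.3% of all promoters). The Naip6 promoter held the RUNX letters TGTGGT (16.8%) and also a GATA motif, spelled AGATAA (11.2%). An AP-1 motif, TGANTCA, was found in that of Arfgef3 (7.81%). The nuclear receptor letters AGGTCA were found in a promoter of Inppl1 (16.3%). Neither the ETS core CCGGAA (14.9%) nor the cyclic AMP response element TGACGTCA (1.79%) was in any of the 8. The second Inppl1 promoter had an observed-to-expected CpG ratio of 1.12, above 98.6% of promoters, while that of Naip6 was 0.0625, with 7.92% of promoters lower. These matches describe letters in a window and were not tested as binding sites.

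Krt80, Cyp27a1, Arfgef3 and Inppl1 shared a pattern, with WT and Tet2KO low and p300KO and p300KO_Tet2KO high. Of the high groups, p300KO had the higher mean for Krt80 and Cyp27a1, and p300KO_Tet2KO for Arfgef3 and Inppl1. Krt80 (ENSMUSG00000037185.8; chromosome 15, 101347444 to 101370162 of mm10, minus strand) had 2.41, 2.93 and 3.18 CPM in the WT libraries, 13.7, 9.16 and 10.4 in those of p300KO, 4.14, 3.59 and 3.77 in those of Tet2KO and 7.94, 9.79 and 8.66 in those of p300KO_Tet2KO. Every library with p300 in the label was above every library without, from 7.94 CPM upward against 4.14 CPM at most. The group means were 2.84 ± 0.39 CPM in WT, 11.1 ± 2.33 in p300KO, 3.83 ± 0.28 in Tet2KO and 8.80 ± 0.94 in p300KO_Tet2KO (SD, n = 3). The log2 fold change was 1.97 (SE 0.19) for p300KO vs WT and 1.20 (SE 0.19) for p300KO_Tet2KO vs Tet2KO, with a mean of 1.59 (SE 0.14).

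Cyp27a1 (ENSMUSG00000026170.6; chromosome 1, 74713574 to 74737892, plus strand) had 4.57, 4.01 and 3.79 CPM in the WT libraries, 9.48, 14.1 and 13.6 in those of p300KO, 6.13, 2.93 and 3.99 in those of Tet2KO and 8.88, 13.4 and 12.7 in those of p300KO_Tet2KO. The lowest p300-labelled library, p300KO_Tet2KO replicate 1, was above the highest of the others, Tet2KO replicate 1. The log2 fold change of Cyp27a1 was 1.58 (SE 0.27) for p300KO vs WT and 1.42 (SE 0.27) for p300KO_Tet2KO vs Tet2KO.

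Arfgef3 (ENSMUSG00000019852.6; chromosome 10, 18581839 to 18743949, minus strand) had 4.66, 3.65 and 4.46 CPM in the WT libraries, 11.07, 10.97 and 15.6 in those of p300KO, 5.12, 4.01 and 6.51 in those of Tet2KO and 17.6, 9.82 and 16.1 in those of p300KO_Tet2KO. The 2 sets of libraries did not overlap, although p300KO_Tet2KO ran from 9.82 to 17.6 CPM. For Arfgef3 the log2 fold change was 1.56 (SE 0.25) and 1.48 (SE 0.25) in p300KO vs WT and p300KO_Tet2KO vs Tet2KO.

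Inppl1 (ENSMUSG00000032737.11; chromosome 7, 101822632 to 101838229, minus strand) had 11.4, 9.90 and 13.2 CPM in the WT libraries, 24.8, 24.5 and 30.1 in those of p300KO, 14.0, 11.4 and 11.96 in those of Tet2KO and 31.9, 31.5 and 29.3 in those of p300KO_Tet2KO. The gap between the sets was wide, from 14.0 to 24.5 CPM, and the p300KO_Tet2KO libraries lay close together (30.9 ± 1.39 CPM, SD, n = 3). For Inppl1 the log2 fold change was 1.21 (SE 0.13) in p300KO vs WT and 1.31 (SE 0.13) in p300KO_Tet2KO vs Tet2KO. Of its 50-base windows, 16.5% also match the antisense gene Gm10602. The strand setting of the counting is not given in the sources used here, so reads of the overlap cannot be told apart, but Gm10602 itself was at 0.0277 to 0.553 CPM.

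**Figure D1:**
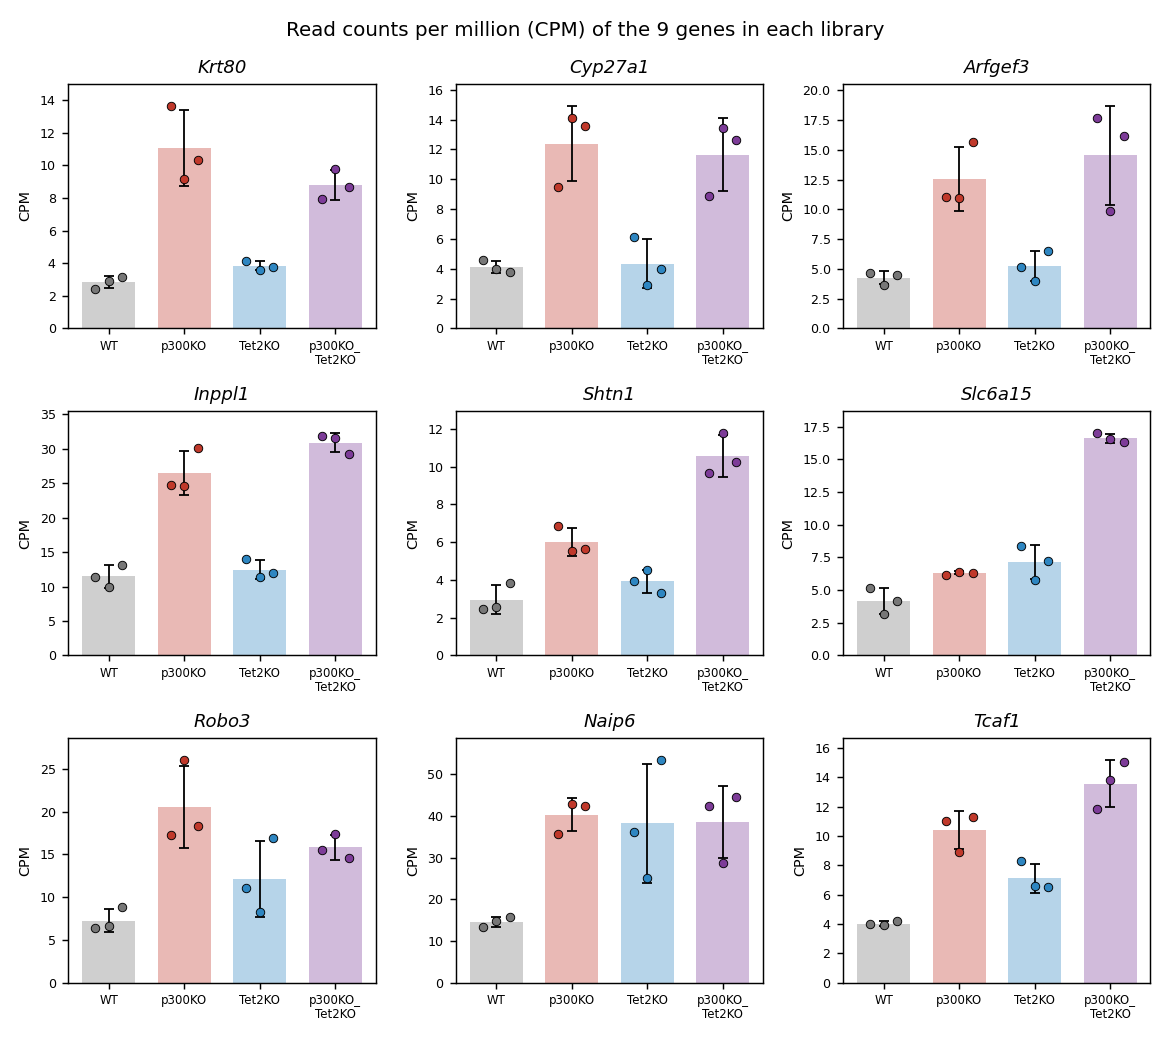
Each panel plots CPM of 1 gene on an axis from 0, with points for the 3 libraries of each group, bars for the group mean and error bars for the SD. Krt80, Cyp27a1, Arfgef3, Inppl1, Shtn1 and Tcaf1 have every p300-labelled library above every other library, while Naip6 is low in WT only.

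Shtn1, Slc6a15 and Tcaf1 had every p300KO_Tet2KO library above every library of the other groups. Shtn1 (ENSMUSG00000041362.15; chromosome 19, 58973356 to 59076100, minus strand) had 2.47, 2.54 and 3.85 CPM in the WT libraries, 6.85, 5.51 and 5.63 in those of p300KO, 3.93, 4.51 and 3.32 in those of Tet2KO and 9.66, 11.8 and 10.2 in those of p300KO_Tet2KO. All p300KO_Tet2KO libraries lay above all p300KO libraries, which lay above the remaining 6. In Shtn1 the log2 fold change was 1.04 (SE 0.21) for p300KO vs WT and 1.42 (SE 0.21) for p300KO_Tet2KO vs Tet2KO.

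Slc6a15 (ENSMUSG00000019894.12; chromosome 10, 103367783 to 103419377, plus strand) had 5.17, 3.21 and 4.18 CPM in the WT libraries, 6.19, 6.41 and 6.34 in those of p300KO, 8.39, 5.80 and 7.22 in those of Tet2KO and 17.0, 16.5 and 16.3 in those of p300KO_Tet2KO. Its p300KO and Tet2KO libraries overlapped, and the p300KO_Tet2KO libraries stood apart from all others at 16.6 ± 0.37 CPM (SD, n = 3). In Slc6a15 the log2 fold change was 0.59 (SE 0.19) for p300KO vs WT and 1.22 (SE 0.19) for p300KO_Tet2KO vs Tet2KO.

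Tcaf1 (ENSMUSG00000036667.13; chromosome 6, 42668002 to 42710088, minus strand) had 4.01, 3.90 and 4.18 CPM in the WT libraries, 10.99, 8.91 and 11.3 in those of p300KO, 8.27, 6.55 and 6.51 in those of Tet2KO and 11.9, 13.8 and 15.04 in those of p300KO_Tet2KO. The 4 groups did not overlap and ran in the order WT, Tet2KO, p300KO, p300KO_Tet2KO. Tcaf1 had a log2 fold change of 1.36 (SE 0.16) for p300KO vs WT and 0.93 (SE 0.16) for p300KO_Tet2KO vs Tet2KO.

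Robo3 and Naip6 were high in p300KO, and their p300KO_Tet2KO and Tet2KO libraries overlapped. Robo3 (ENSMUSG00000032128.13; chromosome 9, 37415669 to 37433246, minus strand) had 6.35, 6.58 and 8.81 CPM in the WT libraries, 17.2, 26.0 and 18.3 in those of p300KO, 11.1, 8.29 and 17.0 in those of Tet2KO and 15.5, 17.4 and 14.5 in those of p300KO_Tet2KO. Tet2KO replicate 3 lay within the range of p300KO_Tet2KO. Its log2 fold change was 1.52 (SE 0.25) for p300KO vs WT and 0.40 (SE 0.24) for p300KO_Tet2KO vs Tet2KO, with a 95% interval of -0.13 to 0.92.

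Naip6 (ENSMUSG00000078942.9; chromosome 13, 100281121 to 100317674, minus strand) had 13.3, 14.7 and 15.7 CPM in the WT libraries, 35.8, 42.9 and 42.3 in those of p300KO, 36.2, 25.1 and 53.4 in those of Tet2KO and 42.3, 28.7 and 44.6 in those of p300KO_Tet2KO. The other groups overlapped each other and all lay above WT. Its log2 fold change was 1.47 (SE 0.24) for p300KO vs WT and 0.01 (SE 0.23) for p300KO_Tet2KO vs Tet2KO, with a 95% interval of -0.48 to 0.51. Of its 50-base windows, 16.9% also match Naip5 and 7.33% match Naip1, so part of its reads could be split between these paralogs and its level is less certain. In Tet2KO replicate 3, where Naip6 and Robo3 were highest within their group, the summed level of 12 macrophage and monocyte markers was 330 CPM. It was 72.4 to 98.04 CPM in WT, 82.5 to 125 CPM in p300KO, 108 to 330 CPM in Tet2KO and 71.5 to 90.3 CPM in p300KO_Tet2KO. Most of the sum was Csf1r (33.4 to 123 CPM) and Ly6c2 (13.3 to 182 CPM), and Mertk, C1qa, C1qb, C1qc, Timd4, Cd5l and Marco of that list were below 1 CPM on average. Without Tet2KO replicate 3 the log2 fold change of p300KO_Tet2KO vs Tet2KO was 0.31 for Naip6 and 0.70 for Robo3, while without Tet2KO replicate 2 it was -0.23 and 0.18. These were the highest and lowest values of the 6 fits that left out a library of those groups, and the part of these cells in either level was not tested. In bulk RNA, fewer cells of a type and less RNA per cell cannot be told apart.

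Over the whole table, all 9 genes had p300KO above WT with no overlap, a pattern shown by 10.6% of tested genes, and 7 of 9, all but Robo3 and Naip6, had p300KO_Tet2KO above Tet2KO with no overlap (9.61% of genes). The 6 p300-labelled libraries were all above the 6 others for Krt80, Cyp27a1, Arfgef3, Inppl1, Shtn1 and Tcaf1 (6 of 9, against 1.46% of genes). These counts follow from how the genes were chosen. In p300KO vs WT 3.91% of all genes were called, 1.06% higher and 2.85% lower, and in p300KO_Tet2KO vs Tet2KO 3.9% were called, 1.01% higher and 2.89% lower. In the mean of both p300 comparisons, 9.06% of all genes were called, 3.05% higher and 6.01% lower. Krt80 ranked 96 from the highest fold change among the 17842 genes, and Naip6, the lowest of the 9, ranked 516. The mean log2 fold change ran from 0.74 (SE 0.16) for Naip6 to 1.59 (SE 0.14) for Krt80, with a median of 1.23 against 0.02 for all genes, and the choice had no numeric threshold. Krt80, Cyp27a1 and Arfgef3 were picked from both p300 comparisons, Robo3, Naip6 and Tcaf1 from p300KO vs WT, and Inppl1, Shtn1 and Slc6a15 from p300KO_Tet2KO vs Tet2KO.

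Levels were low on a per-length scale. In RPKM, the CPM divided by the summed exon length in kilobases, the WT means ran from 0.29 for Arfgef3 to 2.14 for Naip6, and the p300KO means from 0.81 for Slc6a15 to 5.91 for Naip6. In p300KO_Tet2KO the order from the highest RPKM was Naip6 (5.65), Cyp27a1 (5.37), Inppl1 (4.83), Robo3 (2.31), Slc6a15 (2.14), Shtn1 (1.71), Tcaf1 (1.41), Krt80 (1.38) and Arfgef3 (0.997). In this order the differences of Naip6 from Cyp27a1, Cyp27a1 from Inppl1, Robo3 from Slc6a15 and Tcaf1 from Krt80 were each under 1 SD of the more variable gene. The 9 genes had between 57 and 3074 reads in a library.

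Whether these genes also differ with the Tet2 label is not wholly independent of how they were chosen. The libraries differed in total count, and the tests were chosen with earlier results of these data known. The mean of Tet2KO vs WT and p300KO_Tet2KO vs p300KO was tested, which is orthogonal to the p300 comparisons in this layout of equal group sizes. By that test 3 of 9 genes were higher (Slc6a15, Tcaf1 and Shtn1), 0 were lower (0 also at an unadjusted p under 0.05, by DESeq2 and by limma-voom) and 6 did not pass, where 1.18% of all genes were higher and 0.807% lower. The median log2 fold change was 0.25 for the 9 genes and 0.00 for all tested genes. The direction rests on the labels, since the libraries labelled p300KO_Tet2KO held Tet2 RNA near the WT level. Slc6a15 rose by 1.08 on the log2 scale (SE 0.13, edgeR adjusted p = 8.82e-04), and stayed called when any of the 12 libraries was left out (adjusted p at most 0.00497). Tcaf1 rose by 0.61 (SE 0.11, edgeR adjusted p = 0.0150), but was no longer called without WT replicate 2 (adjusted p = 0.0511) or p300KO_Tet2KO replicate 3 (0.0519). Shtn1 rose by 0.63 (SE 0.15, edgeR adjusted p = 0.0492). That call held in 2 of the 12 fits leaving out a library, those without WT replicate 3 or Tet2KO replicate 3, and was lost without any other (adjusted p up to 0.131).

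Naip6 had a Tet2 log2 fold change of 0.66 (SE 0.16, edgeR adjusted p = 0.0609), which became a call without Tet2KO replicate 2 (adjusted p = 0.0113) or p300KO_Tet2KO replicate 2 (0.0362). The others were at 0.25 (SE 0.17) for Arfgef3, 0.18 (SE 0.17) for Robo3, 0.17 (SE 0.09) for Inppl1, 0.06 (SE 0.13) for Krt80 and -0.01 (SE 0.19) for Cyp27a1. The 95% interval for Krt80 ran from -0.23 to 0.35 and that for Cyp27a1 from -0.41 to 0.40, which leaves room for a difference of either sign.

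Tet2KO vs WT and p300KO_Tet2KO vs p300KO each share libraries with a p300 comparison, so their values are given beside it and not as separate support. Naip6 and Tcaf1, called in Tet2KO vs WT, were picked from p300KO vs WT, which uses the same WT libraries. Slc6a15, called in p300KO_Tet2KO vs p300KO, was picked from p300KO_Tet2KO vs Tet2KO, which uses the same p300KO_Tet2KO libraries. The calls of these genes are not free of that choice. In Tet2KO vs WT, 2 of 9 genes were higher (0.482% of all genes): Naip6 at a log2 fold change of 1.39 (SE 0.23, edgeR adjusted p = 0.0182) and Tcaf1 at 0.82 (SE 0.16, edgeR adjusted p = 0.0402). The Naip6 call was lost without WT replicate 1 (adjusted p = 0.132), WT replicate 2 (0.107) or Tet2KO replicate 1 (0.0652). The Tcaf1 call was lost without any of WT replicates 1, 2 and 3 (0.207, 0.189 and 0.0718), Tet2KO replicate 1 (0.178) or Tet2KO replicate 3 (0.0530). Krt80, Slc6a15, Naip6 and Tcaf1 had every Tet2KO library above every WT library (4 of 9, against 11% of genes). In p300KO_Tet2KO vs p300KO, Slc6a15 was the 1 gene of 9 called (0.347% of genes were higher), at 1.40 (SE 0.19, edgeR adjusted p = 0.00384), and it was called in all 6 fits without a library of those groups. Shtn1, Slc6a15 and Tcaf1 had no overlap there (3 of 9, against 7.65% of genes).

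**Figure D2:**
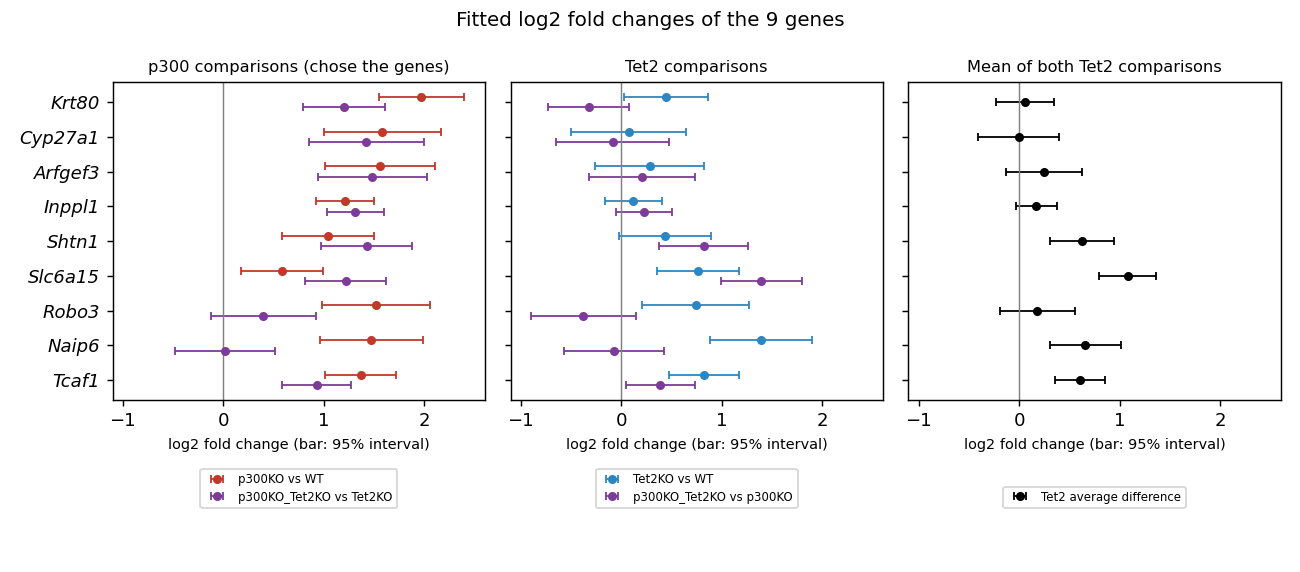
The horizontal axis is the fitted log2 fold change, points are estimates and bars 95% intervals; the left panel holds both p300 comparisons, the middle panel both Tet2 comparisons and the right panel their mean. The intervals of Slc6a15, Tcaf1, Shtn1 and Naip6 lie above 0 in the right panel, and for Naip6 the left panel shows 1.47 in p300KO vs WT and 0.01 in p300KO_Tet2KO vs Tet2KO.

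Whether the p300 difference depended on the Tet2 label was read from the interaction term. By edgeR 0 of the 9 genes and 0 of the 17842 tested genes were called, with 4 of the 9 and 1268 genes at an unadjusted p under 0.05. DESeq2 called 51 genes, Naip6 among them (log2 fold change -1.46, adjusted p = 0.00703), and limma-voom called 0 (1693 genes at an unadjusted p under 0.05). The interaction was -1.46 (SE 0.33, edgeR adjusted p = 0.491) for Naip6, -1.12 (SE 0.34, edgeR adjusted p = 0.586) for Robo3, -0.77 (SE 0.27, edgeR adjusted p = 0.632) for Krt80 and 0.63 (SE 0.26, edgeR adjusted p = 0.678) for Slc6a15. Naip6 and Robo3 had been picked from p300KO vs WT and Slc6a15 from p300KO_Tet2KO vs Tet2KO, so the sign of their interaction is not free of that choice.

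The relatives of the 9 genes were then followed in lists drawn up for each pathway. Their p300 comparisons were tested, but the lists were chosen with earlier results of these data known. These lists exclude the 9 genes themselves. Of 140 tested genes in the 9 lists, 14 were higher, 11 lower and 115 not called in the mean p300 difference (3.05% of all genes were higher and 6.01% lower). The calls were not all firm. The count of higher genes went to between 6 and 9 without any of WT replicates 1 and 2, p300KO replicates 1, 2 and 3, Tet2KO replicates 2 and 3, or p300KO_Tet2KO replicates 1 and 3. Of the 25 called genes, 15 were called in all 12 fits that left out a library, and Casp4, Inpp5b, Naip2, Npc1, Ocrl, Pik3cb, Pik3r3, Slc6a13, Slc7a8 and Srgap2 were not. The median log2 fold change of a list ran from -0.28 for the guidance genes to 0.31 for the keratins, against 0.02 over all genes.

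The keratin list held 6 tested genes besides Krt80, and 0 of them were called by edgeR, limma-voom or DESeq2 (2 were higher and 0 lower at an unadjusted p under 0.05). The median of the list was 0.31. Krt7, a simple epithelial keratin next to Krt80 on chromosome 15, was at 0.30 (SE 0.20, edgeR adjusted p = 0.436). The summed level of 7 epithelial markers, Krt8 and Krt18 included, was 27.8 to 32.6 CPM in WT, 30.9 to 39.5 in p300KO, 32.6 to 43.3 in Tet2KO and 39.9 to 58.3 in p300KO_Tet2KO. Krt14 and Krt19 were at 0 in every library, and Epcam, Krt5 and Krt8 were below 1 CPM on average. Most of the sum was Krt18 (21.7 to 51.9 CPM).

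Of 27 tested sterol and bile acid genes besides Cyp27a1, 1 was higher and 1 lower, with a list median of -0.04. Hsd3b7, an enzyme of bile acid synthesis that acts on hydroxylated sterols, rose by 0.42 (SE 0.06, edgeR adjusted p = 5.29e-04). Npc1, which moves cholesterol out of lysosomes, fell by 0.37 (SE 0.10, edgeR adjusted p = 0.0406), a call that held in 2 of 12 fits without a library.

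Of 20 tested ARF genes, 0 were higher by edgeR, DESeq2 or limma-voom (2 by edgeR at an unadjusted p under 0.05) and 2 were lower, with a list median of 0.01. The lower ones were both cytohesins, which are ARF exchange factors: Cyth4 fell by 0.56 (SE 0.11, edgeR adjusted p = 0.00596) and Cyth1 fell by 0.34 (SE 0.06, edgeR adjusted p = 0.00444). The closest relatives of Arfgef3, the Golgi exchange factors Arfgef1 and Arfgef2, were not called, at 0.09 (SE 0.08) and 0.03 (SE 0.05).

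The phosphoinositide list split evenly, with 4 of 25 tested genes higher, 4 lower and a median of 0.02. The paralog of Inppl1, Inpp5d, encodes SHIP1, the blood cell SHIP phosphatase. Inpp5d had 346, 338 and 352 CPM in the WT libraries, 267, 265 and 283 in those of p300KO, 367, 347 and 308 in those of Tet2KO and 262, 271 and 248 in those of p300KO_Tet2KO. All 6 p300-labelled libraries were below the other 6, opposite in direction to Inppl1. Inpp5d fell by 0.37 (SE 0.06, edgeR adjusted p = 0.00158). Also lower were Synj2, a synaptojanin phosphatase (-0.60, SE 0.07, edgeR adjusted p = 1.98e-04), and Pik3r1, a regulatory subunit of PI 3-kinase (-0.56, SE 0.07, edgeR adjusted p = 2.55e-04). Inpp5d, Synj2 and Pik3r1 were called in every fit without a library. The 4 higher genes were Inpp5b, Ocrl, Pik3cb and Pik3r3, named for completeness after their values were seen, and none of them was called in all 12 such fits.

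Of 11 tested partners of shootin and L1-type adhesion genes, 0 were called by edgeR, DESeq2 or limma-voom, and 0 were at an unadjusted p under 0.05 by edgeR (median -0.02). Of 16 amino acid transporter genes besides Slc6a15, 2 were higher and 2 lower, with a median of 0.00. The glutamine transporter Slc1a5 rose by 0.35 (SE 0.07, edgeR adjusted p = 0.00505) and Slc38a1, another one, fell by 0.28 (SE 0.06, edgeR adjusted p = 0.0126). Slc7a8, a light subunit of an amino acid exchanger, rose by 0.68 (SE 0.19, edgeR adjusted p = 0.0459), and Slc6a13, a GABA transporter of the same family as Slc6a15, fell by 0.77 (SE 0.18, edgeR adjusted p = 0.0204). The means of Slc7a8 were 24.9 ± 9.02 CPM in WT, 54.5 ± 16.6 in p300KO, 47.0 ± 3.52 in Tet2KO and 54.9 ± 15.6 in p300KO_Tet2KO (SD, n = 3). Its p300KO_Tet2KO and Tet2KO libraries overlapped. The call of Slc7a8 held in 3 of 12 fits without a library, and that of Slc6a13 in 8, all but those without WT replicate 1, p300KO replicate 3, Tet2KO replicate 2 or replicate 3 of p300KO_Tet2KO, where the highest adjusted p was 0.0706.

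Of 13 tested guidance genes besides Robo3, 2 were higher and 0 lower by edgeR, with 2 lower at an unadjusted p under 0.05. DESeq2 called 3 higher and 0 lower, and limma-voom 3 higher and 1 lower. The list median of -0.28 had the opposite sign to the called genes. Robo1, a roundabout receptor, was at 0.73 ± 0.10 CPM in WT, 1.02 ± 0.08 in p300KO, 0.74 ± 0.12 in Tet2KO and 1.81 ± 0.45 in p300KO_Tet2KO (SD, n = 3), and rose by 0.89 (SE 0.20, edgeR adjusted p = 0.0126). Srgap2, a GTPase-activating partner of Robo1, rose by 0.25 (SE 0.07, edgeR adjusted p = 0.0369), a call kept in 4 of 12 fits without a library. Robo4, the endothelial and stem cell roundabout receptor, was not called (-0.39, SE 0.18, edgeR adjusted p = 0.237), except without Tet2KO replicate 3, where it was lower (-0.52, adjusted p = 0.0341). The ligands are the Slit proteins, and Robo2 was at 0 to 0.0346 CPM and not tested.

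Of 17 tested inflammasome genes besides Naip6, 3 were higher and 2 lower, with a median of 0.12. Naip5, the other mouse flagellin sensor, had 47.4, 55.4 and 55.4 CPM in the WT libraries, 76.9, 99.4 and 85.3 in those of p300KO, 58.0, 43.4 and 81.2 in those of Tet2KO and 81.0, 87.8 and 90.9 in those of p300KO_Tet2KO. Only Tet2KO replicate 3 among the 6 libraries without p300 in the label reached the level of those with it. Naip5 rose by 0.62 (SE 0.13, edgeR adjusted p = 0.00740). Since 16.9% of the 50-base windows of Naip6 also match Naip5, part of the Naip5 counts could be reads of Naip6. Naip2, which senses the inner rod of bacterial secretion systems, rose by 0.57 in the mean p300 difference (SE 0.15, edgeR adjusted p = 0.0298). Its log2 fold change was 0.99 (SE 0.21) in p300KO vs WT. In p300KO_Tet2KO vs Tet2KO it was 0.16 (SE 0.21), with a 95% interval of -0.29 to 0.62. The call of Naip2 in the mean was lost without WT replicate 1 or 2, p300KO replicate 1 or 3, Tet2KO replicate 1 or 2, or replicate 1 or 3 of p300KO_Tet2KO, with an adjusted p of at most 0.0794. Naip1 was at 0 to 0.313 CPM and was not tested. Casp4, the inflammatory caspase that binds lipopolysaccharide, was higher as well (0.30, SE 0.08, edgeR adjusted p = 0.0340), but was called in only 3 of 12 fits without a library. Its group means were 14.3 CPM in WT, 22.5 in p300KO, 20.1 in Tet2KO and 19.3 in p300KO_Tet2KO. The p300KO mean was thus above WT, but the p300KO_Tet2KO mean was not above Tet2KO. The sensors Nlrp1a and Mefv, which encodes pyrin, fell by 0.69 (SE 0.10, edgeR adjusted p = 8.28e-04) and by 1.99 (SE 0.44, edgeR adjusted p = 0.0117). Mefv was low, at 1.46 to 2.17 CPM in WT, 0.696 to 1.56 in p300KO, 1.27 to 5.27 in Tet2KO and 0.0739 to 0.490 in p300KO_Tet2KO. Its WT and p300KO libraries overlapped, and its highest level was in Tet2KO replicate 3.

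Of 6 tested genes of the TCAF family and TRPM channels besides Tcaf1, 2 were higher and 0 lower by edgeR, DESeq2 and limma-voom (0 lower at an unadjusted p under 0.05), with a median of 0.29. Tcaf2, the paralog and neighbour of Tcaf1, had 0.389, 0.885 and 0.781 CPM in the WT libraries, 2.55, 1.92 and 2.62 in those of p300KO, 1.64, 1.34 and 1.42 in those of Tet2KO and 3.45, 3.07 and 3.64 in those of p300KO_Tet2KO. Its groups ran in the same order as those of Tcaf1 with no overlap. Tcaf2 rose by 1.51 (SE 0.21, edgeR adjusted p = 6.12e-04) with p300 loss, and its Tet2 difference was 0.84 (SE 0.21, edgeR adjusted p = 0.0611). Trpm6, a magnesium channel, rose by 1.66 (SE 0.25, edgeR adjusted p = 0.00123). It was at 0.360 to 0.669 CPM in WT, 0.658 to 1.36 in p300KO, 0.727 to 0.842 in Tet2KO and 2.35 to 4.66 in p300KO_Tet2KO, so its WT and p300KO libraries overlapped. Tcaf3 was at 0 in every library.

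**Figure D3:**
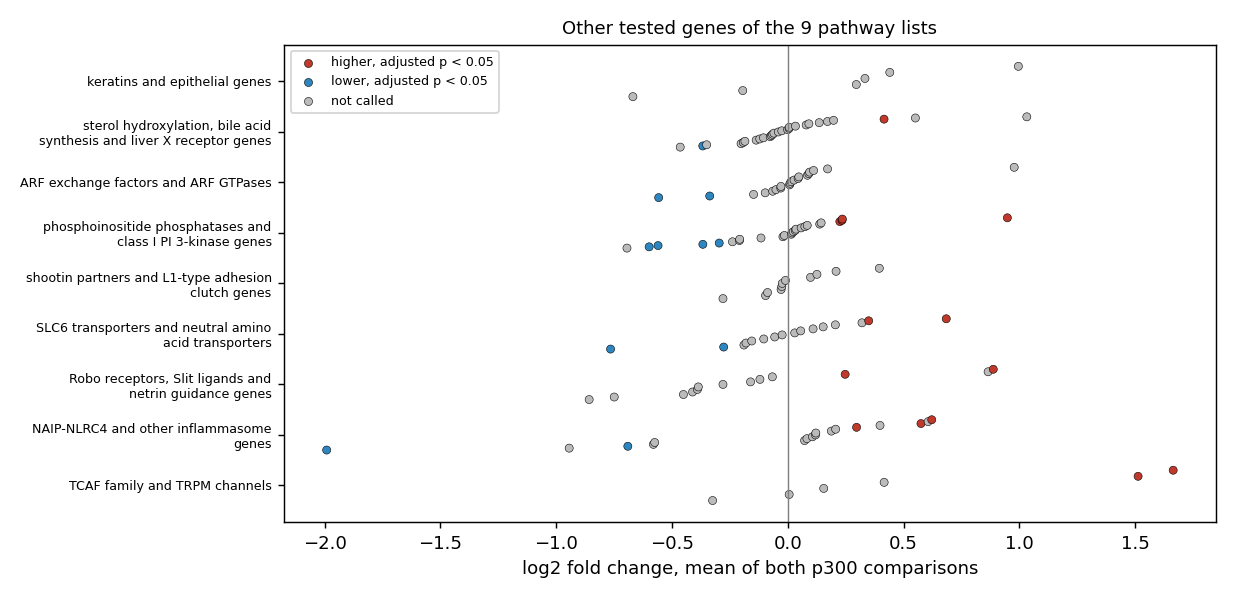
Each point is 1 tested gene of a pathway list, the horizontal axis is its log2 fold change averaged over both p300 comparisons, and colour marks an edgeR adjusted p under 0.05. Tcaf2 (1.51) and Trpm6 (1.66) stand farthest to the right and Mefv (-1.99) farthest to the left, and the keratin and shootin lists hold no called gene.

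The nearest tested gene on each side of each of the 9 was examined, a choice made after the data were seen. Of these 18 neighbours, 5 were higher in the mean p300 difference, 1 was lower and 12 were not called (3.05% of all tested genes were higher and 6.01% lower), with a median log2 fold change of 0.23 against 0.02 for all genes. Naip5 and Tcaf2, described above, were 2 of the 5. Both neighbours of Arfgef3 were among them, and they are not its relatives. Perp, a membrane protein of desmosomes and a p53 target that lies 101071 bp from Arfgef3 on the other strand, had 1.66, 1.38 and 1.67 CPM in the WT libraries, 5.61, 4.38 and 4.68 in those of p300KO, 1.52, 1.47 and 2.13 in those of Tet2KO and 6.47, 5.30 and 5.11 in those of p300KO_Tet2KO. The p300-labelled libraries were all above the others. Perp rose by 1.68 (SE 0.15, edgeR adjusted p = 2.68e-05), a call kept in all 12 fits without a library (adjusted p at most 2.02e-04).

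Hebp2, a heme-binding protein gene 35763 bp on the other side of Arfgef3, was much lower in level, at 0.133 to 0.335 CPM in the libraries without p300 in the label and 0.503 to 1.21 CPM in those with it. Hebp2 rose by 1.60 (SE 0.33, edgeR adjusted p = 0.00810). The Shtn1 neighbours moved in opposite directions. Slc18a2, the vesicular monoamine transporter 184796 bp away, was at 61.5 ± 4.23 CPM in WT, 118 ± 2.20 in p300KO, 104 ± 16.5 in Tet2KO and 126 ± 21.1 in p300KO_Tet2KO (SD, n = 3), and rose by 0.61 (SE 0.09, edgeR adjusted p = 0.00114). Its Tet2 difference was 0.43 (edgeR adjusted p = 0.0331). Gfra1, the GDNF co-receptor 517447 bp away, was at 10.3 to 14.5 CPM in WT, 0.813 to 5.43 in p300KO, 4.78 to 15.6 in Tet2KO and 0.574 to 1.91 in p300KO_Tet2KO, and fell by 2.51 (SE 0.42, edgeR adjusted p = 0.00220). Its p300KO and Tet2KO libraries overlapped through p300KO replicate 3 and Tet2KO replicate 3.

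The neighbours of Krt80, Cyp27a1, Inppl1, Slc6a15 and Robo3 were not called by edgeR. Robo4 lies 554 bp from Robo3, on the other strand and tail to tail with it, and had 20.7 to 48.5 CPM. The strand setting of the counting also bears on genes that overlap. An antisense gene shares 2.72% of the 50-base windows of Krt80 (Gm35853) and 2.04% of those of Arfgef3 (Gm32926), and neither was tested. Cyp27a1, Shtn1, Slc6a15, Robo3 and Tcaf1 shared no 50-base window with another gene.

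**Figure D4:**
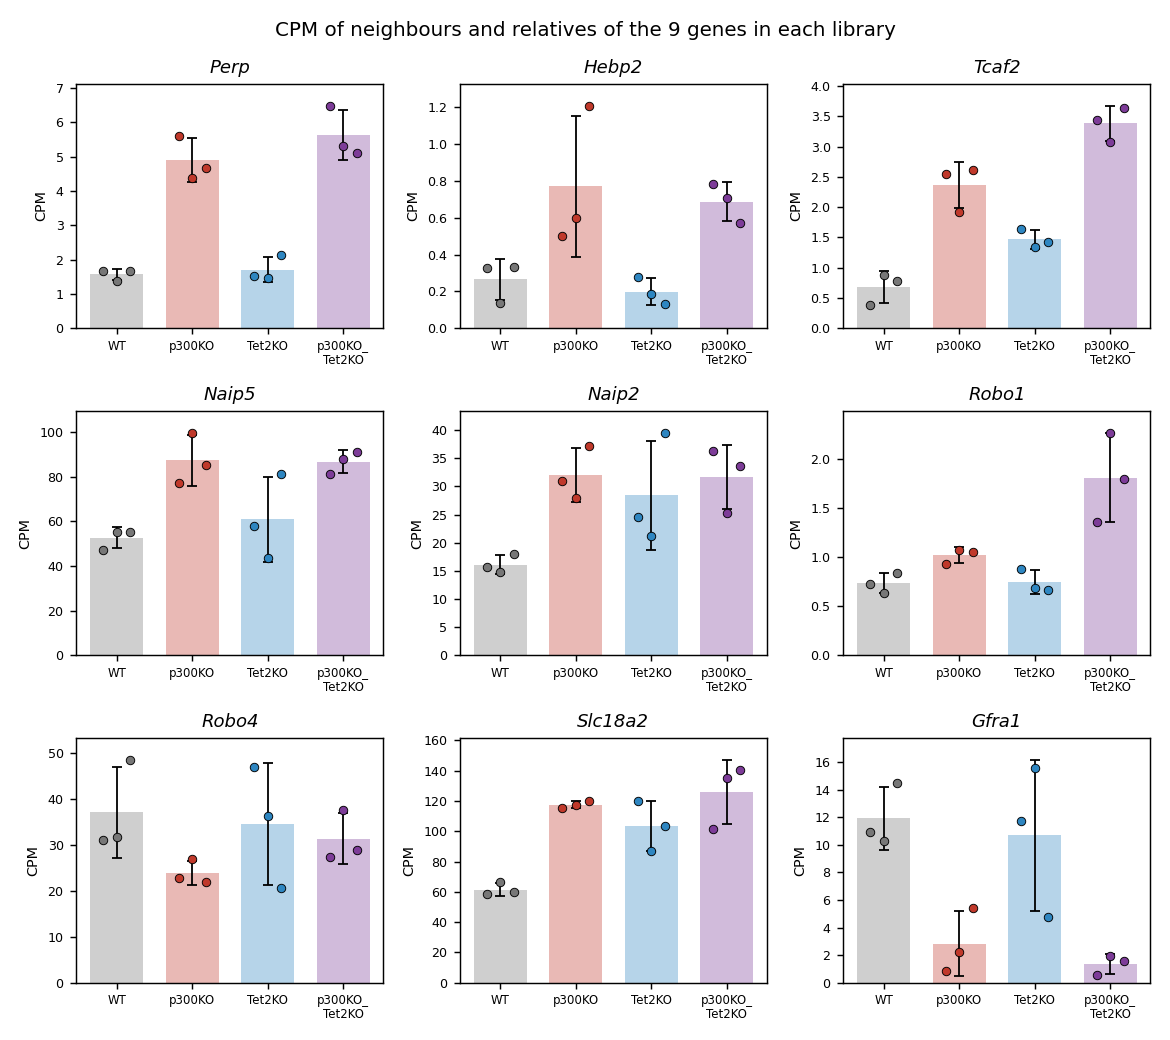
Each panel plots CPM of a neighbour or relative on an axis from 0, with points for libraries, bars for group means and error bars for the SD (n = 3). Perp, Hebp2 and Tcaf2 are higher in every p300-labelled library than in any other, and Naip2 has the shape of Naip6, low in WT and high in the other groups.

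The genes most like the 9 over the 12 libraries were sought among genes of at least 5 CPM. The measure was Pearson's r of log2 CPM with the mean of the 9 standardised profiles, and the points share the group structure by which the 9 were chosen. The closest were Gspt2 (r = 0.97), Prdm9 (0.97), Rps6kc1 (0.97), Ppic (0.96), Pld1 (0.96), Pbx3 (0.96), Cmtm3 (0.95) and Dhrs7 (0.95). Gspt2, a translation release factor, was at a mean of 10.9 CPM in WT, 24.6 in p300KO, 15.1 in Tet2KO and 23.2 in p300KO_Tet2KO. Pbx3, a homeobox cofactor, was at 8.79, 17.4, 11.6 and 22.6 CPM in the same order of groups.

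For single genes, the closest was Myb for Krt80 (r = 0.96), a transcription factor gene of blood progenitors with group means of 698, 1049, 756 and 1011 CPM in the order WT, p300KO, Tet2KO and then p300KO_Tet2KO. Rusc2 was closest to Cyp27a1 (0.95) and to Inppl1 (0.96), Asph to Arfgef3 (0.96), and Jkamp to Shtn1 (0.97) and to Tcaf1 (0.96). Zfp462 was closest to Slc6a15 (0.96), Top3b to Robo3 (0.95) and Naip2, a paralog, to Naip6 (0.95). With the group means removed, the strongest correlations over the 12 libraries were between Arfgef3 and Naip6 (r = 0.78), Robo3 and Naip6 (0.65) and Krt80 and Shtn1 (0.63), out of 36 pairs. The mean standardised level of the 9 genes was -1.33 to -0.98 in WT, -0.76 to -0.25 in Tet2KO, 0.57 to 0.72 in p300KO and 0.91 to 1.01 in p300KO_Tet2KO.

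Sums of marker genes of other cells differed between groups as well. The sum of 7 megakaryocyte markers was 167 to 218 CPM in WT, 346 to 489 in p300KO, 200 to 292 in Tet2KO and 242 to 314 in p300KO_Tet2KO, and all 7 were at 1 CPM or more on average. Its largest parts were Itga2b (mean 141 CPM), Itgb3 (54.8) and Vwf (34.8), while Gp1ba, Pf4, Ppbp and Gp9 had means of 15.9, 15.3, 8.62 and 5.75 CPM. The sum of 8 mesenchymal and endothelial niche markers was 135 to 143 CPM in WT, 78.8 to 102 in p300KO, 148 to 160 in Tet2KO and 69.7 to 79.8 in p300KO_Tet2KO, with 3 of 8 at 1 CPM or more and Lepr, Col1a1, Col3a1, Pdgfra and Cdh5 below. Nearly all of that sum was Pecam1 (67.5 to 156 CPM), which blood progenitors also express, and Kdr (mean 1.68 CPM) and Cxcl12 (mean 1.51 CPM) were low. Neuron and glia markers summed to 1.00 to 2.82 CPM, beside 16.3 to 17.0 CPM of Slc6a15 in p300KO_Tet2KO. On average over the libraries 0 of 7 reached 1 CPM, Map2 and Gfap were at up to 1.31 and 1.14 CPM in a library, and Syt1 was at 0 throughout. The part of these cells in the levels of the 9 genes was not tested. With a covariate for sex-linked RNA, the mean p300 log2 fold changes ran from 0.62 (Naip6) to 1.62 (Krt80), and Slc6a15, Tcaf1 and Shtn1 stayed called for Tet2 (edgeR adjusted p = 0.00300, 0.0271 and 0.0338).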

How the data were processed

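RNA was measured by paired-end sequencing of ribosomal RNA-depleted RNA in 12 mouse libraries. The authors aligned reads to mm10 with STAR 2.6.0c and deposited RSEM 1.3.0 expected counts per gene, not normalized. These were rounded to whole numbers in R 4.3.3. Genes were filtered with filterByExpr of edgeR 4.0.16, scaled by TMM and fitted with edgeR quasi-likelihood models, 1 mean per group over all 12 libraries. Genes with a Benjamini-Hochberg adjusted p under 0.05 in a comparison are described as called. Tests are two-sided. Standard errors were derived from the F statistic, and intervals are 95%. The mean p300 (or Tet2) difference averages the 2 comparisons that differ in that label. For 3 against 3 libraries, 0.1 is the smallest p of an exact permutation test, so p-values come from the fit. The table holds 0 spike-in genes, so the spike-in factor that the study used was not applied, and 0 columns were left unassigned. Totals of 18773903 to 79573664 counts set the precision, for counting error only.

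The 9 genes, the pathway and marker lists and the tests were chosen with earlier results of these data known. Besides the 9, the text names their paralogs and up to 4 called genes per list by adjusted p, and the genes most alike by Pearson's r (log2 CPM, prior count 2, among genes with a mean of at least 5 CPM). The called genes Casp4, Inpp5b, Ocrl, Pik3cb and Pik3r3 were named in addition. The lists for pathways hold 186 genes apart from the 9, of which 140 were tested; 1 called gene of the phosphoinositide list is counted but not reported here by name. Alternatives were DESeq2 1.42.0 size factors and its Wald test, limma 3.58.1 voom, no filter, 1 CPM in 3 libraries, a replicate block, a sex covariate and leaving out each library. Scripts were tested on simulated data. Coordinates are from Gencode vM21 on mm10, matched by identifier without version for 17743 of 17842 tested genes, since the version differs for all of the 9 but Cyp27a1. RPKM divides CPM by the union of exons. Windows of 50 bases were compared between annotated transcripts. Figures were drawn with matplotlib 3.10.9.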

Additional observations from a re-analysis of the deposited data

How the results depend on the processing

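For the 9 genes, the p300 differences moved by less than the spread between replicates under each alternative run. The near-zero value of Naip6 in p300KO_Tet2KO vs Tet2KO (0.01) was -0.09 with the sex covariate and -0.23 to 0.31 with 1 library left out, and 0 called results turned in direction. DESeq2's Wald test raised the genes called to 1219 in p300KO vs WT (from 698), 1252 in p300KO_Tet2KO vs Tet2KO (from 695), 798 in the mean Tet2 difference (from 355), 488 in Tet2KO vs WT (from 113), 351 in p300KO_Tet2KO vs p300KO (from 100) and 51 in the interaction (from 0). Limma-voom gave 170 in Tet2KO vs WT. Without a filter the counts were 227 there, 155 in p300KO_Tet2KO vs p300KO and 2 in the interaction. The sex covariate gave 192 in p300KO_Tet2KO vs p300KO. The cause of these changes was not tested. The deviations of same-numbered libraries correlated above 0.1 in 7 of 18 pairs (r from -0.19 to 0.31). The highest were replicates 2 and 3 of p300KO with those of p300KO_Tet2KO (0.31 and 0.29). Differently numbered libraries were not compared, so these values cannot decide whether the numbers pair the libraries. With the number as a replicate block, 1518 genes were called in the mean p300 difference, 597 to 656 in its parts, 351 in the mean Tet2 difference and 2 in the interaction. Leaving out 1 library gave 1163 to 1806 genes in the mean p300 difference, 244 to 900 in p300KO vs WT, 387 to 767 in p300KO_Tet2KO vs Tet2KO, 188 to 393 in the mean Tet2 difference, 36 to 205 in Tet2KO vs WT, 39 to 148 in p300KO_Tet2KO vs p300KO and 0 to 14 in the interaction. These counts fell by over 1.5 times in p300KO vs WT without WT replicate 1 or 2 or any p300KO library (244, 264, 360, 397 and 322), in p300KO_Tet2KO vs Tet2KO without Tet2KO replicate 1 or 2 or p300KO_Tet2KO replicate 1 or 3 (426, 407, 391 and 387), and in the mean Tet2 difference without WT replicate 1 or 2, p300KO replicate 2 or 3, Tet2KO replicate 1 or p300KO_Tet2KO replicate 3 (201, 188, 212, 233, 217 and 221). In Tet2KO vs WT they were 36 and 38 without WT replicate 1 or 2, 42 without Tet2KO replicate 1 and 205 without Tet2KO replicate 2, and in p300KO_Tet2KO vs p300KO 39 and 45 without p300KO replicate 2 or 3 and 58 and 52 without p300KO_Tet2KO replicate 2 or 3. The interaction had 14 without WT replicate 3 and 1 without Tet2KO replicate 2. Leaving out 1 library gave 6 to 12 higher and 9 to 16 lower genes of the pathway lists. Their higher count of 14 was 10 with the block and 10 without a filter. The block ended the calls of Casp4 (adjusted p = 0.0562), Inpp5b (0.0528), Ocrl (0.0505) and Srgap2 (0.0588). The sex covariate ended those of Casp4 (0.0522), Npc1 (0.0878), Pik3cb (0.0529), Pik3r3 (0.0708), Slc7a8 (0.0568) and Srgap2 (0.0671). No filter ended those of Casp4 (0.0793), Inpp5b (0.0658), Ocrl (0.0501), Pik3cb (0.1003) and Srgap2 (0.0529), and limma-voom that of Pik3r3 (0.0652). The count of higher neighbours was 5 in each of the 12 fits leaving out a library and 4 to 6 over the 7 other settings. The neighbours were chosen after seeing the data. Among the 9 genes, the Tet2 call of Shtn1 was also lost with DESeq2 size factors (adjusted p = 0.0503), without a filter (0.0525) and with the block (0.0885), and Naip6 was called for Tet2 by DESeq2 (0.00244), without a filter (0.0187) and with the block (0.0450). In Tet2KO vs WT, Tcaf1 was lost with the block (0.0571) and the sex covariate (0.0568), and DESeq2 called Slc6a15 (0.0110). In p300KO_Tet2KO vs p300KO, DESeq2 (0.00616) and limma-voom (0.0312) called Shtn1. The 9 genes had 57 to 3074 counts in a library, which limits the precision of the shallowest.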
